A study of Homo sapiens with 12 samples.

Results

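A set of 8615 genomic regions was examined in HCC70 cells: regions called for the transcription factor SREBP2 under vehicle that overlapped by at least 1 bp a region called for H3K27ac and no region called for the nuclear receptor RORγ. They were 7.34% of the 117441 SREBP2 vehicle regions on the autosomes and X, and the regions selected in this way are called members below. HCC70 is an established triple-negative breast cancer line of basal type. Cells had received vehicle or the RORγ antagonist XY018, a synthetic compound, for 24 h. Its dose was 5 µM in the sample labels and lower in the methods of the study. Each antibody (SREBP2, RORγ, H3K27ac) was used on 1 vehicle and 1 XY018 library, so none of the differences between treatments has a replicate check and no p-value was computed. The vehicle lists of all 3 antibodies chose the members, and their vehicle values are given as a description. Sequence, annotation and the 3 XY018 lists were not used to choose them.

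SREBP2 is a membrane-bound factor that is released when cellular sterol is low, enters the nucleus and activates genes of cholesterol synthesis and uptake, often from promoters that also bind Sp1 and NF-Y. RORγ is a nuclear receptor that binds single ROR response elements and has sterols and sterol intermediates among its ligands. H3K27ac, acetylation of lysine on histone H3, marks nucleosomes beside active promoters and enhancers, so a SREBP2 region inside it lies in chromatin that is open to many factors.

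The remaining SREBP2 vehicle regions formed 3 classes. There were 23419 acetylated regions that also overlapped RORγ (19.9%, called acetylated co-bound), 51291 regions with neither RORγ nor H3K27ac (43.7%, called SREBP2-only outside H3K27ac) and 34116 regions with RORγ and without H3K27ac (29.0%). Depth recovered from the peak values was between 3.65 and 6.16 tags per kb, lowest in both RORγ libraries. At the usual background a RORγ region was called from as few as 3 fragments, a SREBP2 region from 4 and an H3K27ac region from 5, so a missing RORγ call means no call at this depth and not absence of the factor. The SREBP2 list was shorter with XY018 (69700 regions) although that library was no shallower (5.92 tags per kb against 5.56). With vehicle, H3K27ac lay at the promoters of 11 of 13 basal breast genes and 4 of 4 epithelial genes. It also lay at those of 6 of 9 luminal and hormone receptor genes, 2 of 5 immune genes and 1 of 4 fibroblast genes. Of the endothelial genes only CDH5 could be looked up, and its promoter had H3K27ac (PECAM1 is not in the annotation used). Other gene lists also had it at most promoters, with 13 of 13 circadian, 9 of 9 AP-1 and 9 of 10 YAP and TEAD target genes. The share over all protein-coding genes is not given here, so these counts do not show a cell identity.

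Members that hold the sterol response element (SRE), searched as TCACNCCAC on both strands, are shown because this is the element SREBP factors are known for. They are the 3 of the 5 strongest such members whose sequence lies outside untranslated regions. The other two, at the promoters of TDRKH (the strongest, with a SREBP2 fold of 12.8) and ZNF808 (8.88), are named without sequence. Capitals mark the match, with up to 30 bases to either side inside the window of 100 bp around the summit. The first lies between genes nearest to PKP1, a desmosome gene (chr1:201224273-201224341), the next upstream of SREBF1, the gene of the related factor SREBP1 (chr17:17743513-17743581), and the last in an intron of WNT7B, a Wnt ligand gene (chr22:46321644-46321695). All are on the plus strand of hg19.
Near PKP1: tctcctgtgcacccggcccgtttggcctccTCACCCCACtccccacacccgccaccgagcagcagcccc
Near SREBF1: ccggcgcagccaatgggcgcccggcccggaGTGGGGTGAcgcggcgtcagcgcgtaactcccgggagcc
WNT7B intron: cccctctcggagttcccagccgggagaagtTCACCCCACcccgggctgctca
The strongest members outside promoters with the AP-1 motif, TGANTCA, are shown for contrast, since AP-1 motifs are common in enhancers of basal breast cells. They lie near KLF9 (chr9:73033951-73034017), in introns of SMAD6 (chr15:67022079-67022116), NINJ2 (chr12:679782-679823) and CXXC5 (chr5:139040821-139040862), and in an intron of a long non-coding gene (chr22:39649633-39649673).
Near KLF9: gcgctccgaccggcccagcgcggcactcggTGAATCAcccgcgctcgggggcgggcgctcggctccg
SMAD6 intron: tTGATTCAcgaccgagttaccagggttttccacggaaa
NINJ2 intron: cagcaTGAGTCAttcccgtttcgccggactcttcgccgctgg
CXXC5 intron: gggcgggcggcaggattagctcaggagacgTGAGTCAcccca
Chromosome 22 non-coding gene intron: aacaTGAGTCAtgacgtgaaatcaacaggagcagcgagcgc
The printed SRE matches were 16 bp (near PKP1), 49 bp (near SREBF1) and 79 bp (WNT7B) from the summit. Of the AP-1 matches, only that near KLF9 lay at the summit, 2 bp before it. The other 4 AP-1 matches were 89 to 99 bp from their summits, at the edge of the window. A match describes letters and does not show that the factor was bound.

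The members were weak among the acetylated SREBP2 regions. Their SREBP2 vehicle fold over background, one of the values that selected them, had a median of 4.20 (lowest 2.04, highest 19.7), against 12.3 in acetylated co-bound regions and 3.57 in SREBP2-only regions outside H3K27ac. In fragments at the summit the medians were 10, 31 and 7. A q-value of at most 0.01 was reached by 6497 members (75.4%) and one of at most 1e-05 by 3443 (39.97%). Their width had a median of 261 bp (10th to 90th percentile 185 to 472). The H3K27ac regions that held them had a median vehicle fold of 7.14, against 12.9 in those that held co-bound regions, and the summits of both marks were a median of 97 bp apart. The summit of 92.3% of members lay inside the H3K27ac region itself.

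The borders of the class were thin on both sides. Only 46 members shared 10 bp or less with their H3K27ac region (median SREBP2 fold 3.45), and 51 SREBP2-only regions missed one by 10 bp or less (median fold 3.62). A RORγ region lay within 10 bp of 29 members (median fold 4.33), and 26 acetylated co-bound regions shared 10 bp or less with RORγ (median fold 3.55). The median distance from a member to the nearest RORγ vehicle region was 2524 bp, and 2662 members (30.9%) had one within 1000 bp. RORγ was thus called in the neighbourhood of many members, though not on them.

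Members lay mainly at promoters and in introns. A promoter, taken as 1000 bp upstream to 100 bp downstream of any transcript start, was overlapped by 3321 members (38.5%, 95% interval 37.5 to 39.6), against 59.5% of acetylated co-bound regions, 9.75% of SREBP2-only regions outside H3K27ac and 24.7% of all SREBP2 vehicle regions. Outside promoters, 3283 summits (38.1%) were intronic, 1180 (13.7%) intergenic, 434 (5.04%) in coding exons and 182 (2.11%) in UTRs. The promoters of 2923 of 20090 protein-coding genes (14.5%) were touched. Members were 11.1% of the SREBP2 vehicle regions on chromosome 22, 9.52% on chromosome 19 and 2.96% on the X, beside 7.34% over all.

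GC content peaked at the summit. In members at promoters its mean was 68.9% in the 101 bp at the summit and 51.1% and 51.5% at 1000 bp to either side, and outside promoters the means were 60.4%, 50.9% and 50.5%. Outside promoters, acetylated co-bound regions reached 71.6% and SREBP2-only regions 55.6%. The members thus stood between these classes. The part of GC content in the SREBP2 values was not tested.

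Of the members as called, a minority was called again for SREBP2 with XY018, while most stayed in acetylated chromatin. Of the members, 2367 (27.5%, 26.5 to 28.4) overlapped a SREBP2 XY018 region, against 39.8% of all SREBP2 vehicle regions, 93.7% of acetylated co-bound regions and 8.99% of SREBP2-only regions outside H3K27ac. The XY018 list was shorter, and with lists of equal length the members' share was 42.0%. Among members with a q-value of at most 1e-05 it was 52.4%, a majority. An H3K27ac XY018 region was overlapped by 6243 members (72.5%, 71.5 to 73.4), beside 26.7% of all SREBP2 vehicle regions and 86.4% of acetylated co-bound regions. That the members stood above the background for H3K27ac follows from their being chosen inside vehicle H3K27ac. RORγ, which no member overlapped by choice, was called with XY018 on 1802 (20.9%, 20.1 to 21.8), against 46.7% of all SREBP2 vehicle regions and 18.2% of the 59906 that had no RORγ vehicle region.

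**Figure D1:**
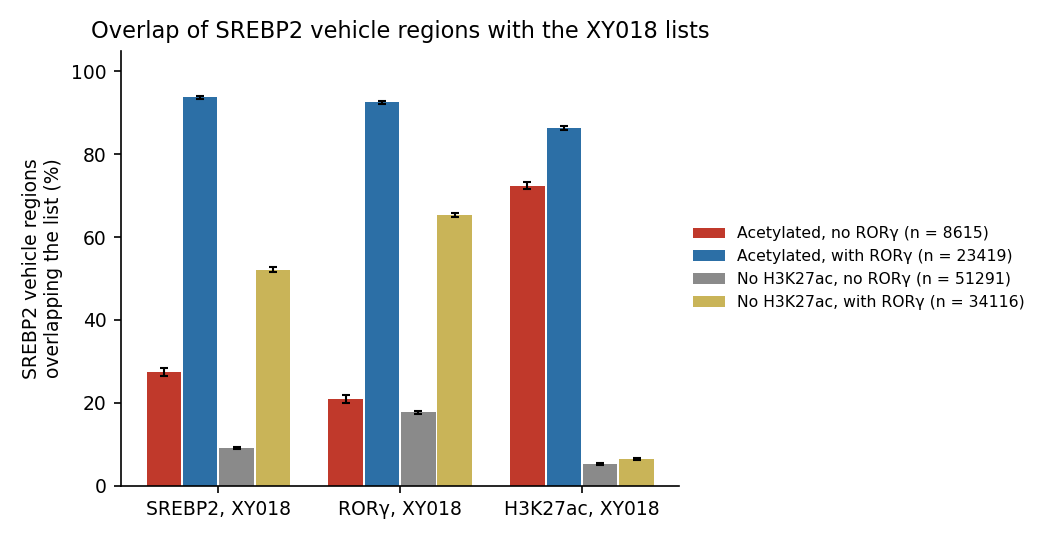
Bars give the share of SREBP2 vehicle regions (in percent) that overlapped each XY018 list, for the 4 classes defined by the vehicle lists, with exact binomial 95% intervals. The members (acetylated, no RORγ) overlapped the SREBP2 list at 27.5%, the RORγ list at 20.9% and the H3K27ac list at 72.5%. The acetylated regions with RORγ reached 93.7%, 92.5% and 86.4%.

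The commonest outcome with XY018 was H3K27ac alone, at 3935 members (45.7%). No list held 1549 members (18.0%), and SREBP2 with H3K27ac and without RORγ was called at 1078 (12.5%). All 3 proteins were called at 762 (8.85%), and RORγ with H3K27ac but without SREBP2 at 468 (5.43%). Outcomes with a factor and without H3K27ac were rarer, with RORγ alone at 296, SREBP2 with RORγ at 276 and SREBP2 alone at 251. These combinations are given for members alone, which were chosen inside vehicle H3K27ac, and are not set against the other classes. Of all SREBP2 vehicle regions, 39.8% overlapped the SREBP2 list with XY018, 46.7% the RORγ list and 26.7% the H3K27ac list. Members that kept a SREBP2 call also had RORγ more often than those that lost it, by 21.6 percentage points within classes of vehicle fold (18.5 to 24.6), and H3K27ac more often by 4.73 points (1.997 to 7.45). Both factors were thus called with XY018 on partly shared members.

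The share called again, or kept share, went up with strength. In 10 classes of vehicle fold of about equal size it was 7.41% in the weakest members (fold 2.04 to 2.96) and 75.8% in the strongest (8.17 to 19.7). Compared within these classes, the kept share of members minus that of acetylated co-bound regions was −24.8 percentage points (95% interval −26.6 to −23.04), and −66.3 points without the classes. They were kept more often than SREBP2-only regions outside H3K27ac by 10.6 points (9.67 to 11.6), or 18.5 points without classes. The order co-bound, member, SREBP2-only held in each of the 10 classes. The intervals cover counting error only, and the fold classes do not remove differences in GC content or repeats.

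**Figure D2:**
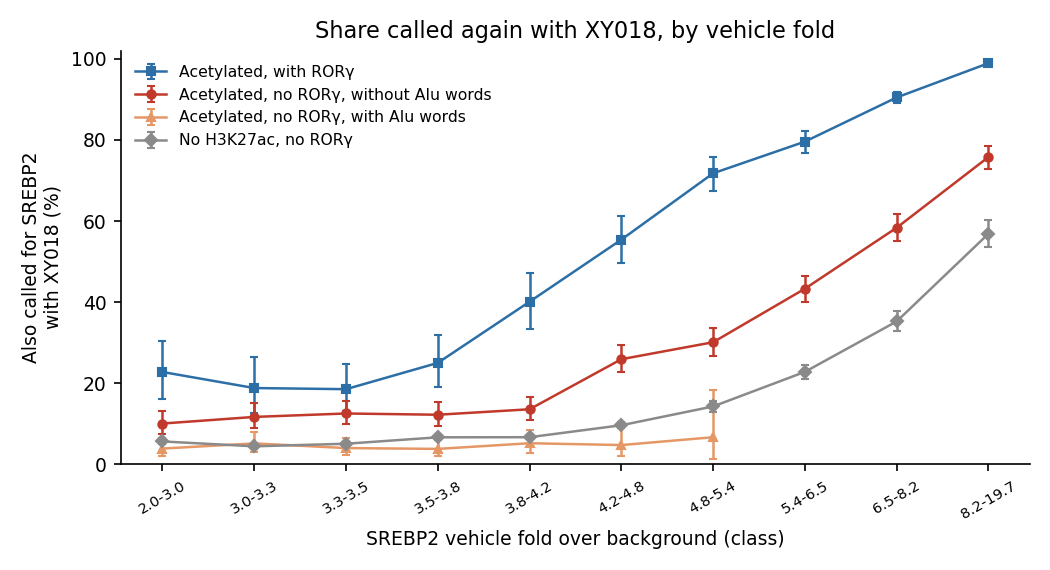
The share of regions also called for SREBP2 with XY018 (percent, with exact 95% intervals) is plotted by class of SREBP2 vehicle fold, the classes being equal-sized among members; points with under 20 regions are left out. Acetylated regions with RORγ lie highest, members without Alu words rise from 10.0% to 75.8%, and members with Alu words stay between 3.79% and 6.67%.

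For the RORγ XY018 list the comparison turned on the classes. Members had it more often than SREBP2-only regions outside H3K27ac by 3.19 points without classes (2.27 to 4.11) whereas within classes of fold the difference was −4.53 points (−5.49 to −3.57). The RORγ regions that members gained had a median of 7 fragments and a fold of 4.03, close to the 7 fragments and 3.798 of the whole RORγ XY018 list, against 20 fragments and 10.5 in acetylated co-bound regions. Members with a RORγ vehicle region within 1000 bp had RORγ with XY018 at 26.7% and kept SREBP2 at 31.5%. By class of vehicle fold, RORγ was called with XY018 on 8.94% of the weakest members and 54.3% of the strongest. The absence of RORγ that defines the members thus refers to the vehicle list alone.

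Alu elements are the most abundant short interspersed repeat of the human genome, and their sequence split the members. A window with at least 2 of 6 words of the Alu consensus (CTACTAAA, AAATTAGC, CCCAGCTA, GAGGCTGA, TGTAATCC and CTCCAGCC, both strands) within 100 bp of the summit was found at 1915 members (22.2%, 21.4 to 23.1), against 14.2% of windows 1000 bp away. In all SREBP2 vehicle regions the share was 25.8%, in acetylated co-bound regions 1.70% and in SREBP2-only regions outside H3K27ac 40.1%. Outside promoters 1702 of 5294 members held the words (32.1%) and at promoters 213 of 3321 (6.41%). The words were chosen after a scan of the members' own sequence against their flanks, so these shares are descriptive.

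The members with Alu words were weak and rarely called again. Their median vehicle fold was 3.45 (7 fragments), against 4.83 (11 fragments) in the other 6700. SREBP2 was kept at 89 of the 1915 (4.65%, 3.75 to 5.69) and at 2278 of the 6700 (34.0%, 32.9 to 35.1). Within classes of fold the difference was −10.5 points (−11.9 to −9.01). Outside promoters the kept shares were 4.52% with the words and 27.8% without, and at promoters 5.63% and 41.2%. H3K27ac with XY018 was called on 63.3% with the words and 75.1% without.

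The advantage of members over SREBP2-only regions in kept share was taken apart by Alu words. The fold classes were cut on each set of members by itself, and those with Alu words were weaker. Both differences below thus cover unlike strengths and were not compared at equal strength. In the weakest class of all members (fold 2.04 to 2.96), 10.0% without the words and 3.87% with them were kept. Without the words the advantage was larger. There it was 12.9 points within classes (11.7 to 14.1). With the words it was −0.07 points (−1.06 to 0.91), so acetylated and non-acetylated Alu regions of like strength did not differ detectably in being called again. The study's methods state that only uniquely placed tags without duplicates were used for peak calling, and what part repeated sequence had in these values was not tested. Among SREBP2 vehicle regions with a q-value of at most 1e-05 the words were at 2.25%, whereas in H3K27ac vehicle regions they were at 25.8% in all and 24.1% under that limit.

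**Figure D3:**
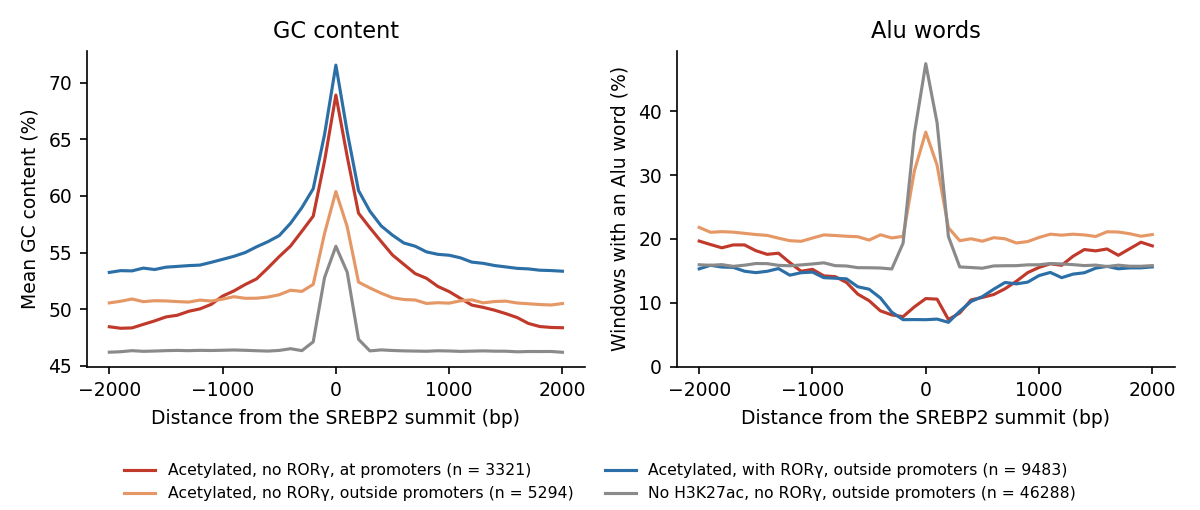
Left, mean GC content (percent), and right, the share of windows of 101 bp with at least 1 Alu word (percent), by distance in bp from the SREBP2 summit, for members at and outside promoters and for the 2 comparison classes outside promoters. Members outside promoters peak at 36.7% for Alu words, between SREBP2-only regions (47.4%) and co-bound regions (7.35%), and GC content peaks at the summit in all 4 groups.

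Several promoter motifs were more frequent at the summits of members at promoters than in their flanks. No correction for base composition was made, and mean GC content was 68.9% at these summits, against 51.1% and 51.5% at 1000 bp. The NRF1 motif and the cAMP response element were added after the data were examined. At promoters, the GC box GGGCGG, which Sp-family factors bind, was at 50.9% of member summits (49.2 to 52.6) and at 15.2% of windows 1000 bp away, and outside promoters at 22.0% and 10.1%. The ETS motif CCGGAAG was at 7.89% of promoter members (6.99 to 8.86), 1.61% of their flanks and 4.76% of co-bound promoters. The motif GCGCNTGCG of NRF1, a factor of nuclear genes for mitochondria, was at 6.23% (5.43 to 7.11), 0.632% and 4.15%. The cAMP response element TGACGTCA was at 1.05% of promoter members (0.735 to 1.46), 0.211% of their flanks and 0.387% of co-bound promoters. GC boxes ran the other way, being at 69.0% of co-bound promoters. Over all SREBP2 vehicle regions, most of which lay outside promoters, these motifs were at 30.1% (GC box), 2.40% (ETS), 1.61% (NRF1) and 0.216% (cAMP response element).

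The SRE was found at 210 members (2.44%, 2.12 to 2.79), at 1.68% of their flanks, at 0.892% of acetylated co-bound regions and at 2.42% of all SREBP2 vehicle regions. Of those 210, 101 lay in windows with Alu words (48.1%, 41.2 to 55.1), against 22.2% of members in all. In members without Alu words the SRE was at 1.63% (1.34 to 1.96) and at 1.44% of their flanks, a difference within the intervals. Of the 210, 24 were called again for SREBP2 with XY018, beside 53 of the 271 members with AP-1 and 2367 of all 8615 members. Of the 209 acetylated co-bound regions with the SRE, 175 were. The E-box CACGTG, the other element that SREBP factors can bind, was at 4.45% of members (4.02 to 4.90), at 3.22% of their flanks and at 4.72% of all SREBP2 vehicle regions. The CCAAT box of NF-Y (searched as CCAAT) was at 12.1% of members, 19.1% of their flanks, 7.10% of acetylated co-bound regions and 10.8% of all SREBP2 vehicle regions.

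Motifs of basal enhancers had lower shares at the summits than in the flanks, and for TEAD and GRHL shares near those of all SREBP2 vehicle regions. AP-1 was at 271 members (3.15%, 2.79 to 3.54) and at 5.35% of their flanks, and at 2.74% of all SREBP2 vehicle regions. Outside promoters the values were 3.66% and 5.61%. The TEAD motif GGAATG was at 5.59% and 9.98%, and in all SREBP2 vehicle regions at 5.89%. The GRHL motif AACCNGTT was at 0.302% and 1.38%, and in all SREBP2 vehicle regions at 0.325%. The RORE core, the binding element of ROR receptors, was at 10 members (0.116%) and at 0.424% of flanks, with 0.142% in all SREBP2 vehicle regions. The letters searched were strict, with A or G required before GGTCA, and matched 167 of the 117441 SREBP2 vehicle regions. The elements that the study mutated in the MVK and HMGCS1 promoters have T at that place and could not match. These shares thus cannot tell whether ROR elements of other forms were present. The study ranked ROREs among the leading motifs of SREBP2 regions, which this search cannot judge. No correction for base composition was made.

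**Figure D4:**
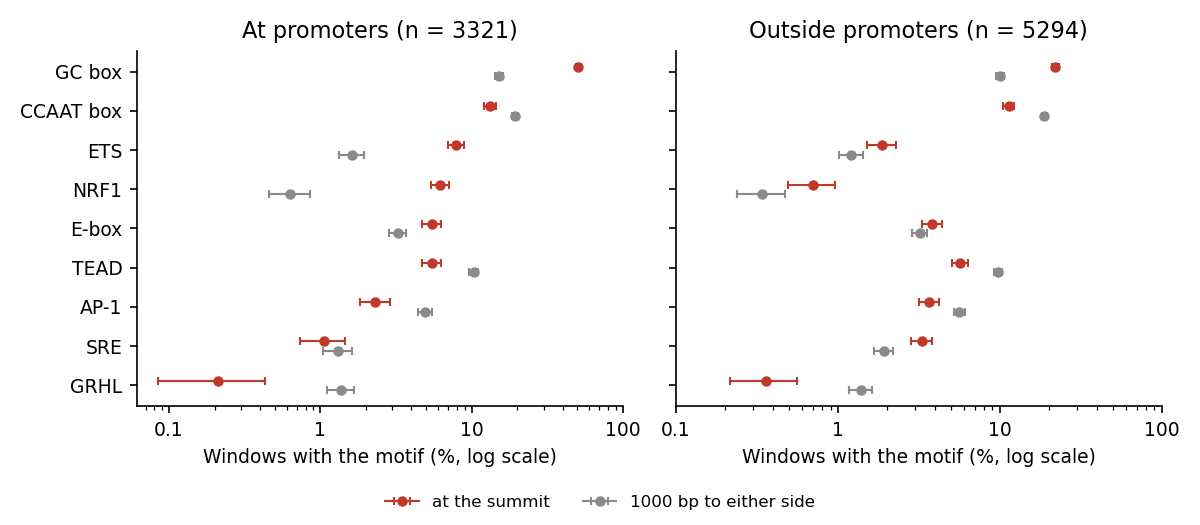
The share of windows with each motif (percent, log scale) in members at promoters and outside promoters, at the summit and 1000 bp to either side, with exact 95% intervals. GC box, ETS and NRF1 lie to the right of their flanks in both panels (50.9% against 15.2% for the GC box at promoters), and TEAD, AP-1, CCAAT box and GRHL lie to the left.

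Where SREBP2 was called with both treatments, its pileup was lower with XY018. The 2367 members had a median of 16 fragments at the summit with vehicle and 10 with XY018, and a median ratio over the genome-wide background of 0.552 (95% interval of the median 0.544 to 0.565). The ratio was under 1 at 2170 members (91.7%), beside 94.2% of all SREBP2 vehicle regions called in both. Its median was 0.613 in acetylated co-bound regions, 0.677 in SREBP2-only regions outside H3K27ac and 0.614 over all. Lower values with XY018 were thus found in each of these classes, among the regions called in both lists. In members the median was 0.565 at promoters and 0.547 outside them. In the 89 members with Alu words it was 0.847, with a median of 8 fragments under both treatments. A SREBP2 call with XY018 took at least 4 fragments at the usual background, so weak regions called in both cannot reach low ratios. This bears on the 0.847 and on the 0.677 of SREBP2-only regions, whose medians were 10 and 8 fragments. Differences in the ratio between classes were not tested. The class built from the XY018 lists instead of the vehicle lists gave 0.539.

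**Figure D5:**
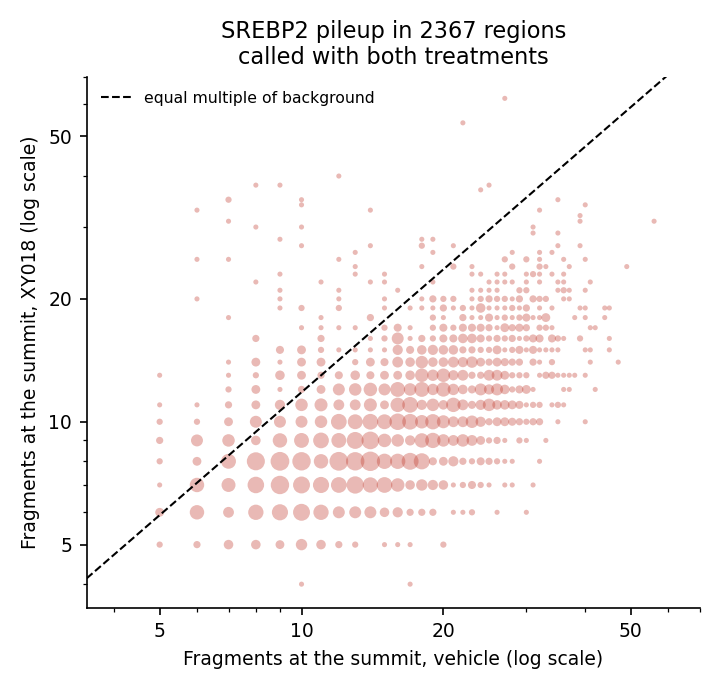
Each point is a combination of whole fragment numbers at the SREBP2 summit with vehicle (x axis) and XY018 (y axis, both on log scales) for the 2367 members called with both, the point's area growing with the number of members; the dashed line marks equal multiples of the genome-wide background. Most members, 2170, lie under the line.

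The acetylated regions that held members were mostly called again with XY018, with ratios to either side of 1. The members lay in 8227 H3K27ac vehicle regions, 7780 of which held 1 member and none more than 5. An acetylated co-bound SREBP2 region was also held by 12.7% of them. With XY018, 6210 (75.5%) were called again, against 69.3% of all H3K27ac vehicle regions and 85.5% of those that held co-bound regions. The median fragments at the summit were 23 with vehicle and 22 with XY018, and the median ratio over background was 1.10. That ratio was under 1 at 2501 of them (40.3%), beside 33.7% of all H3K27ac vehicle regions called in both, whose median was 1.15. Its quartiles were 0.857 and 1.35. Among H3K27ac regions called again, those that held only kept members had a median of 1.03 and those that held only members not called again 1.10. H3K27ac regions that were not called again have no ratio and do not enter these medians.

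The same rule was applied to the 3 XY018 lists. The class built in this way held 3605 of 69700 SREBP2 regions (5.17%), beside 7.34% with vehicle, and 1041 members belonged to it under both treatments. These were 12.1% of the members and overlapped 28.7% of the XY018 class. Of all SREBP2 vehicle regions, 39.8% met the SREBP2 part of the rule with XY018. Matching shares for the other classes are not given, so these values describe this class alone. The lists differed in length, and no replicate gives the overlap to be had without a change of treatment. Of the XY018 class, 64.0% had been called for SREBP2 with vehicle, 75.9% lay in an H3K27ac vehicle region and 31.1% on a RORγ one. Alu words were at 20.2% of it, close to the share among the members.

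The member of highest vehicle fold lay on the promoter of PPP2R1A, the scaffold subunit of protein phosphatase 2A (chr19:52693426-52693816). SREBP2 fold was 19.7 with vehicle (39 fragments) and 14.9 with XY018 (32 fragments), and H3K27ac 50.7 (139 fragments) and 54.0 (140). RORγ was called with neither treatment, its nearest vehicle region lying 3880 bp away. Both SREBP2 and H3K27ac were thus strong with either treatment.
The promoter of ZNF839, a zinc finger gene, had a SREBP2 fold of 17.1 with vehicle (41 fragments) and 6.20 with XY018 (15), and an H3K27ac fold of 6.71 and 4.59. The promoter of TPM4, a tropomyosin of the actin cytoskeleton, had a SREBP2 fold of 15.8 (31 fragments) and 5.83 (14), with H3K27ac at 24.3 and 27.6. At both, RORγ was again not called, and the SREBP2 value was lower with XY018 while H3K27ac was in the same range. These members were picked for their high SREBP2 vehicle folds, so part of a lower value in another library follows from the choice.

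Other strong members gained a RORγ call with XY018. In an intron of TXNRD2, the mitochondrial thioredoxin reductase (chr22:19877912-19878282), the SREBP2 fold was 19.2 with vehicle (47 fragments) and 5.81 with XY018 (14). RORγ there had a fold of 5.20 with XY018 (9 fragments), and H3K27ac (7.49 with vehicle) was not called again. The promoter shared by GOLGA2, a Golgi matrix protein, and SWI5, a DNA repair factor, had a SREBP2 fold of 15.3 and 10.8, an H3K27ac fold of 59.4 and 79.3, and a RORγ fold of 3.94 with XY018. EIF2B5, a subunit of the translation factor eIF2B, had a SREBP2 fold of 15.2 and 4.97, an H3K27ac fold of 46.4 and 24.7, and a RORγ fold of 3.08 with XY018. These RORγ calls rested on 8 or 9 fragments each. The 10 members of highest vehicle fold were all called for SREBP2 with XY018, with 11 to 32 fragments against 31 to 47 with vehicle. As the vehicle value picked them, part of this fall follows from the choice, and how large that part is was not tested.

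The members whose SRE or AP-1 motif is printed above differed in what followed. They too were picked for high vehicle folds, with the same limit. Near SREBF1 the SREBP2 fold was 9.37 (18 fragments) with vehicle and 4.52 (9) with XY018, and H3K27ac was 13.4 and 19.8. In WNT7B it was 9.34 (26) and 5.11 (14), with H3K27ac at 7.25 and 12.6 and a RORγ fold of 8.66 gained with XY018 (16 fragments), the nearest RORγ vehicle region lying 149 bp away. Near PKP1 a SREBP2 fold of 11.1 (25 fragments) was not called again. Of the AP-1 set, the members near KLF9 (11.8 and 5.87), in NINJ2 (9.37 and 6.52) and in the chromosome 22 non-coding gene (10.2 and 5.58) were called with both treatments, and those in SMAD6 (9.86) and CXXC5 (9.37) with vehicle alone. Of members with Alu words, those in introns of GOLPH3L (fold 7.21, 14 fragments) and the DLEU1/DLEU2 locus (6.48, 13 fragments) were in none of the XY018 lists.

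Cholesterol biosynthesis genes held members at a share close to that of all protein-coding genes. At the promoter or in the body, a member was found for 5 of 21 cholesterol biosynthesis genes (23.8%), beside 24.7% of all protein-coding genes. RORγ lay at the promoter of 16 of those 21 genes with vehicle. It also lay at those of 11 of 13 circadian, 7 of 9 AP-1, 9 of 10 YAP and TEAD target and 7 of 13 basal breast genes. The RORγ share over all protein-coding genes is not given here, so the 16 cannot be read as particular to this pathway. At the promoter or in the body, members were found for 10 of 19 genes of sterol sensing, uptake and fatty acid synthesis (52.6%) and 3 of 6 efflux genes. They were found for 5 of 13 circadian genes, 2 of 9 AP-1 genes and 3 of 10 YAP and TEAD targets. FADS1 and FADS2 count as 2 genes although they share members. Gene length was not matched, and the differences between lists were not tested.

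Within the cholesterol pathway, the promoter of HMGCS1, which makes the substrate of HMG-CoA reductase, held a member of fold 4.44 (8 fragments) with vehicle and 2.71 (5) with XY018, 220 bp from a RORγ region, with H3K27ac at 10.6 and 8.22. The promoter of MVK, the mevalonate kinase, held one of fold 3.95 (7 fragments), 213 bp from a RORγ region, and it was in no XY018 list. TM7SF2, a sterol reductase, held a member of fold 6.84 (16 fragments) and 5.87 (12), and another of fold 3.06 (11 fragments) 18 bp from a RORγ region, which was not called for SREBP2 again. Its first member lay 494 bp from a RORγ region. At all 3 promoters a RORγ region was thus near the members without touching them.
Among uptake and fatty acid genes, desaturases and a sterol transporter held members. The promoter region shared by the desaturase genes FADS1 and FADS2 had a SREBP2 fold of 8.93 (20 fragments) and 4.801 (10). The overlapping H3K27ac regions had folds of 12.4 and 36.2, each at its own summit. SCD, the stearoyl-CoA desaturase, had a member of fold 9.37 (18 fragments) that was not called for SREBP2 again and gained a RORγ call of 4 fragments. STARD4, a sterol transporter, had 4.70 (14 fragments) and 3.61 (7), far from any RORγ region (36735 bp).
ABCA1, which exports cholesterol, had a member of fold 9.37 (18 fragments) that was not called again, while H3K27ac stayed at 12.4 and 12.7. NR1H2, which encodes the oxysterol receptor LXRβ, had 9.61 (19) and 3.27 (10), with a RORγ call of 5 fragments with XY018. The clock output gene DBP had 7.54 (15) and 4.48 (10), with H3K27ac at 9.58 and 92.7. SREBP2 was thus called with both treatments at several of these promoters, and each of those folds was lower with XY018. The H3K27ac folds given for single genes, such as DBP, belong to the strongest overlapping region of each list at its own summit. That summit may lie away from the member and differ between the lists, so a change of acetylation at the member was not measured.

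Some genes held many members. GSE1 held 28 over 507 kb and RXRA, the common partner of nuclear receptors, 26 over 123 kb. CELSR1, an adhesion receptor of planar cell polarity, held 20. Of the 26 at RXRA, 12 were called again for SREBP2 with XY018, 8 had RORγ and 19 H3K27ac, and none held Alu words. At CELSR1 3 of 20 were called again, 2 had RORγ and 16 H3K27ac. Over all 8615 members, the shares called with XY018 were 27.5% (SREBP2), 20.9% (RORγ) and 72.5% (H3K27ac), and 22.2% held Alu words. The called shares over all SREBP2 vehicle regions were 39.8%, 46.7% and 26.7%. The genes were not compared with other members at equal SREBP2 fold, so these counts show no difference from them.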

How the data were processed

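Chromatin immunoprecipitation was sequenced in HCC70 cells with vehicle or XY018. Of 12 samples, the 6 immunoprecipitated libraries were used, grouped by the labels, with 1 library per group; the 6 input libraries were not used here. According to the study's methods, BWA placed the reads on hg19, and uniquely placed tags without duplicates were passed to MACS. The submitters' processing notes name Bowtie2, MACS2 2.1.0 and bedtools. The lists were called per library. The fold enrichment ratio, the −log10 p and −log10 q values are those the authors deposited for each peak. The deposited display score was not used. The H3K27ac lists hold part of longer call sets, by a rule not given in the sources used here.

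Regions were shared from 1 bp of overlap. Where a region overlapped several regions of a list, the values of the one of highest fold were taken, at its own summit. Whole fragments at the summit were solved from fold and −log10 p with the Poisson formula used by MACS (tolerance 5% of 1 fragment), for between 99.9991% and 100% of the regions in a list. The commonest local background gave the scaling, and divided by the smallest region width the tags per kb. Shares have exact (Clopper-Pearson) binomial 95% intervals and differences within 10 classes of vehicle fold normal ones; they cover counting error only. GENCODE 44 lifted to GRCh37, the build hg19, gave genes. Motifs were searched in 201 bp around the summit. Scripts used Python 3.11.15, pandas 2.3.3, SciPy 1.17.1 and pysam 0.24.0, and were tested on simulated data.

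Members, gene lists and tests were chosen with earlier results of these data known. The genes named were the 10 members of highest SREBP2 vehicle fold, the 10 highest at protein-coding promoters, the 10 highest called with XY018 for SREBP2 and H3K27ac and not RORγ, the members of the gene lists, the 10 genes with most members, and the strongest 5 members with the AP-1 motif outside promoters and with the SRE; examples of each are given, and some items are not reported here. The Alu words, the Alu members, the NRF1 motif and the cAMP response element were added after the data were examined. Patterns for CTCF, YY1, ZNF143, AP-2, RUNX, p53, TATA boxes and tRNA genes, and 1 further palindrome, were also looked at and are not reported. Alternatives were other q-values, overlaps, distances, windows, classes, list lengths and scalings.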

Additional observations from a re-analysis of the deposited data

How the results depend on the processing

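Of 72 recomputed values, of which 13 were chosen after seeing the data, 24 stayed within their interval or within 1.5 times the count, 47 moved beyond it and 1 changed sign. With a q-value of at most 0.01 in all lists, the kept share of members was 32.1%, the promoter share 44.7%, the SRE share 1.85% and the Alu share 13.6%; the kept share differed by −33.0 points from co-bound and by 12.9 points from SREBP2-only regions, the RORγ share by −2.88 points, and the kept share with against without Alu words by −13.0 points. With q of at most 1e-05 in the SREBP2 list, 3443 members remained, with kept share 52.4%, RORγ 36.5%, H3K27ac 76.1%, promoter 53.6%, AP-1 2.76% and SRE 1.05%, and differences of −33.2 and 18.6 points. An overlap of 50% gave H3K27ac 70.2% and −26.7 points against co-bound regions. Without any RORγ region within 1000 bp the values were 25.7% kept, 18.3% RORγ, 36.2% promoter and −17.5 points against co-bound regions. Lists of equal length gave 42.0% kept, 31.0% RORγ and 71.5% H3K27ac. Without RORγ under either treatment, 19.5% were kept, 73.6% had H3K27ac and 37.2% lay at promoters.

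A promoter of 5000 bp to either side held 72.9%. Within 50 bp of the summit AP-1 was at 1.11% and the SRE at 1.15%, and outside promoters at 3.66% and 3.31%. Without classes of fold, the differences were −66.3 points (co-bound), 18.5 points (SREBP2-only) and −29.4 points (Alu words), and the RORγ difference turned from negative to 3.19 points. Classes of −log10 p gave −22.5 and 9.59 points. Without Alu words, 34.0% were kept, 1.63% held the SRE and the difference from SREBP2-only regions was 12.9 points. At least 1 Alu word was at 34.7% (difference −7.78 points) and at least 3 at 14.6%. The SREBP2 ratio was 0.612 scaled by tags per kb and 0.539 in the class built from the XY018 lists. Where the value moved, the cause was not tested.

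No paired analysis was possible because each group held 1 library. Nothing separates treatment from library, and the intervals cover counting error only. A region just under a caller's limit counts as missing, and weak members rest on few fragments.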
